A study of Mus musculus with 24 samples.

Results

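The effect of chronic mild stress (CMS) on gene expression was compared between the cerebral cortex (CC) and the prefrontal cortex (PFC) of mice. The comparison used the 12 of 24 arrays labelled as either cortical area, with 3 CMS arrays and 3 control arrays in each. For every probe set except the Affymetrix controls, the difference between CMS and control in the PFC was subtracted from that in the CC. All 4 groups came from wild-type male C57BL/6 mice, without a transgene or drug. Their stated age was 6 to 8 weeks, which the methods give as the age at purchase, before the stress period. CMS mice met unpredictable stressors on 6 days a week for 4 weeks, in the same sequence for every mouse, and control mice met none. The labels name 1 mouse per array, whereas the methods speak of pooled RNA, so the p-values measure the spread between arrays, which may be technical. The labels do not say which part of the cerebral cortex was taken.

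The prefrontal cortex sets goals, values and emotional responses, and it sends dense projections to the striatum, the large subcortical nucleus that selects actions under the control of dopamine. The cortex borders on tissues with very different expression programs. The striatum lies beneath it, the choroid plexus, which secretes cerebrospinal fluid, lines the ventricles, and the olfactory bulb lies in front of the frontal pole. Chronic stress in rodents is known to alter glucocorticoid signalling, neuronal activity genes and the traffic of myeloid cells from bone marrow.

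Values are log2 expression as deposited, centred so that each probe set has a median of 0 over the 24 arrays. A value therefore says how an array stands against the others and gives no level, and genes cannot be ranked by abundance. Replicates differed little, with a median SD over probe sets of 0.0395 in CC CMS, 0.0661 in CC controls, 0.0381 in PFC CMS and 0.0479 in PFC controls. CC control replicate 3 stood apart, with a correlation of 0.69 to each of the other CC controls against 0.837 between those 2. The cortical genes Tbr1 and Rorb were higher on all CC and PFC arrays than on those of the amygdala and hippocampus, and so was Emx1. Cux2 overlapped with the amygdala, and Neurod6 was higher in the hippocampus, at 1.60 to 1.68, than in the CC, at 0.21 to 0.40. In the PFC Neurod6 lay between -1.19 and -0.21, below every CC array. The hippocampal genes Prox1, C1ql2, Fibcd1 and Spink8 were lower on all CC and PFC arrays than in the hippocampus. The bacterial poly-A RNAs added before labelling, which carry no mouse signal, also differed between the groups. Their mean over 27 probe sets lay between -0.63 and -0.45 in PFC controls, between 0.27 and 0.59 in CC controls, and between 0.01 and 0.05 on the 6 CMS arrays. Their CMS effect was thus -0.44 in the CC and 0.58 in the PFC, and their part in the results below was not tested. The 3′ probe set of the Gapdh control minus its 5′ counterpart was 0.097 to 0.16 in CC controls and -0.046 to -0.035 in CC CMS. In the PFC this value lay between -0.0098 and 0.032, and its part in the results was not tested either.

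The response to CMS differed between the areas for 689 of 45037 probe sets (1.53% of those tested). A call required both a limma p under 0.05 after Benjamini-Hochberg adjustment and a log2 difference over 1, which is a 2-fold difference between the effects. The CC effect lay above the PFC effect for 556 probe sets (1.23%) and below it for 133 (0.295%). Without CC control replicate 3 there were 482 and 168 probe sets. The split was more even by gene, with the probe sets of a gene averaged, at 47 and 41 genes. It was also more even with limma treat against a log2 difference of 1, at 28 and 21 probe sets. CMS alone gave 612 calls in the CC (1.36%), 483 higher (1.07%) and 129 lower (0.286%), and 112 in the PFC (0.249%), 53 higher (0.118%) and 59 lower (0.131%). Across all probe sets the 2 effects had a Pearson r of 0.148 and a Spearman correlation of 0.0209, as a description over probe sets that share arrays.

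The called probe sets were sorted by the area in which CMS itself was called. Of the 556 with the higher CC effect, 314 were called for CMS in the CC only, 21 in the PFC only, 2 in both in the same direction and 3 in opposite directions. The other 216 were called in neither area, so that only the gap between 2 smaller effects passed. Of the 133 with the lower CC effect, 58 were called in the CC only, 29 in the PFC only, 3 in both in the same direction and 43 in neither. Only 36 probe sets were called in both areas, 13 higher in both, 20 lower in both and 3 higher in the CC and lower in the PFC. At the edge of the threshold, Cfap97 was called at 1.002 and Rab6b was not at 0.9998. With the probe sets of a gene averaged, 88 of 18193 genes were called (0.484%). Values of list members below are such gene means, with the following exceptions. Single probe sets are given for the 12 largest called differences in each direction, for Ttr, S100a8, Cbln1 and Nrp1, and for examples of these classes.

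**Figure D1:**
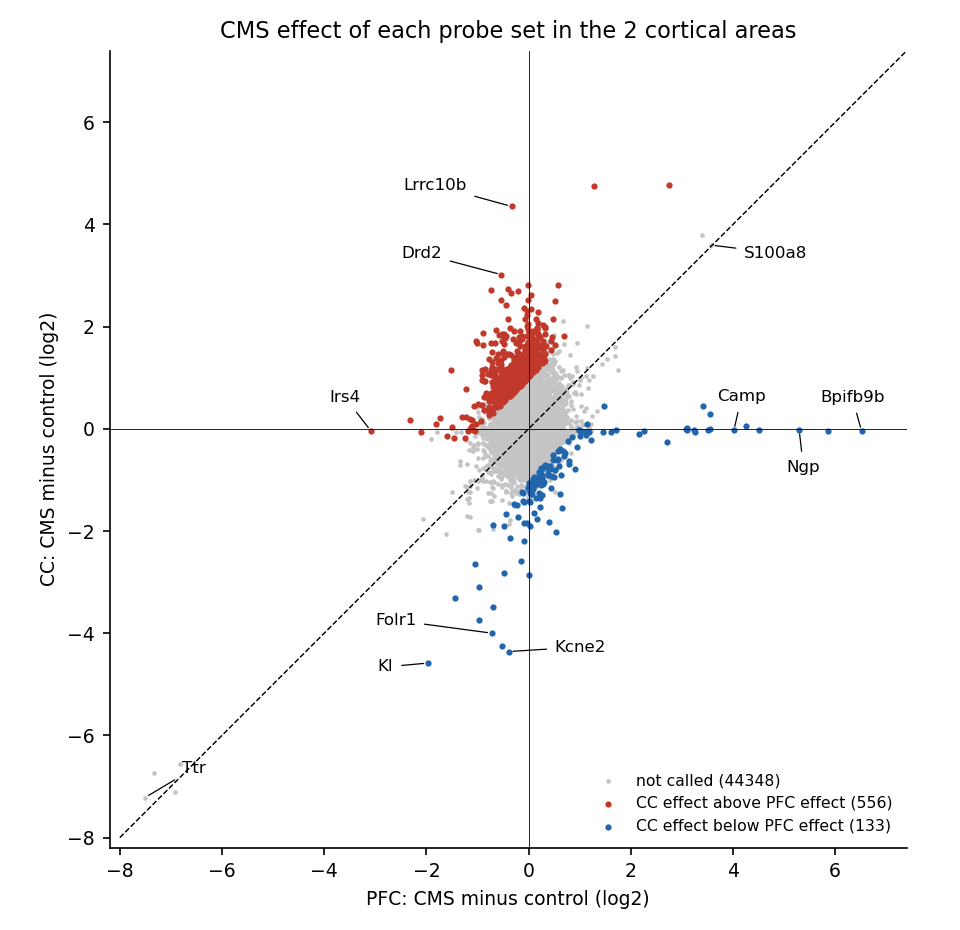
Each point is 1 of 45037 probe sets, with its CMS minus control difference in the PFC on the horizontal axis and in the CC on the vertical axis, both in log2 units. Red and blue mark the 556 and 133 probe sets whose effects differ, and the dashed line marks equal effects. The blue points fall along 2 arms, 1 of genes that rose in the PFC and stayed near 0 in the CC and 1 of genes that fell in the CC. Ttr and S100a8 lie near the line of equal effects.

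The 29 gene lists were chosen with earlier results of these data known. Among them, that of striatal markers had the most members called with a higher CC effect. By probe set it held 21 of the 556 such calls, out of its 60 probe sets, against 1.23% of all probe sets. Of its 27 measured genes, 13 were called with a higher CC effect and 0 with a lower one, against 0.258% of all 18193 genes. Their median difference was 1.06 on the log2 scale, against -0.0461 over all genes. With quantile normalization of centred values, which equalises their distribution between arrays and not that of intensities, 9 were called and the median was 0.772. In the CC 10 genes were called higher with CMS (0.214% of all genes) and 21 were higher by adjusted p alone (9.39%). In the PFC 0 were called, and by adjusted p alone 10 were lower (3.91%) and 1 was higher (4.88%).

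Drd2, the dopamine receptor of the indirect pathway neurons, had values of -4.15, -4.56 and -5.20 in CC controls and -1.28, -1.85 and -1.72 in CC CMS. In the PFC it was 1.94, 1.85 and 1.95 in controls and 1.40, 1.47 and 1.28 in CMS. The 2 CC groups were far apart without overlap, and every PFC array lay above every CC array. The CC effect exceeded the PFC effect by 3.55 (SE 0.33, adjusted p = 0.000278, limma).

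Drd1, the receptor of the direct pathway, had CC control values of -1.99, -1.97 and -2.29 against -0.81, -0.73 and -0.70 with CMS, and PFC values between 0.64 and 0.77 on all 6 arrays. Its difference was 1.39 (SE 0.11, adjusted p = 8.05e-05, limma), and the PFC groups overlapped. With quantile normalization it was 0.86, which ends the call. Penk, which encodes the opioid precursor proenkephalin of indirect pathway neurons, had CC control values of -2.58, -2.61 and -2.75 against -1.15, -1.11 and -1.02 with CMS. Its PFC values lay between 1.02 and 1.11, and its difference was 1.61 (SE 0.06, adjusted p = 2e-06, limma), against 0.93 and no call with quantile normalization.

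The same order of groups held for signalling enzymes and nuclear receptors of these neurons. Pde10a, the phosphodiesterase that degrades cyclic nucleotides in striatal neurons, had its largest probe set at -3.34, -3.34 and -3.31 in CC controls and -0.18, -0.70 and -0.96 in CC CMS. In the PFC the same probe set fell from 0.92, 0.90 and 1.18 to 0.32, 0.18 and 0.28 by adjusted p, so that the areas moved towards each other. The difference was 3.46 (SE 0.23, adjusted p = 5.28e-05, limma), and 4 of the 5 probe sets of the gene were called. Rxrg, a retinoid X receptor, differed by 3.01 (SE 0.24), and Syndig1l, a synapse protein that is also named Capucin, by 3.14 (SE 0.10) with both probe sets called. Ppp1r1b, which encodes DARPP-32, the phosphoprotein at which dopamine signals meet, differed by 1.38 (SE 0.10), and by 0.87 without a call under quantile normalization.

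Among the probe sets named, the largest difference with a higher CC effect was that of Lrrc10b, a leucine-rich repeat gene outside the list. Its values were -6.28, -6.27 and -6.70 in CC controls, -1.95, -1.89 and -2.35 in CC CMS, between -0.09 and -0.06 in PFC controls and between -0.50 and -0.22 in PFC CMS. CMS raised it by 4.35 in the CC, and the difference between the areas was 4.69 (SE 0.21, adjusted p = 5.19e-06, limma).

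The gap between the areas was narrower with CMS for these genes, and the PFC still lay above the CC. The mean over the 27 striatal genes ran from -1.85 to -1.68 in CC controls, from -0.76 to -0.71 in CC CMS, from 0.88 to 0.95 in PFC controls and from 0.66 to 0.71 in PFC CMS. For Rxrg the CC minus PFC difference was -5.49 in controls and -2.48 with CMS. Not every marker followed. Pdyn, the prodynorphin of direct pathway neurons, differed by 0.08 (SE 0.16), and Six3, a transcription factor of striatal development, by 0.14 (SE 0.14), and neither passed the test. In bulk tissue, more cells of a type and more RNA per cell cannot be told apart, and the part of striatal tissue in these values was not tested.

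**Figure D2:**
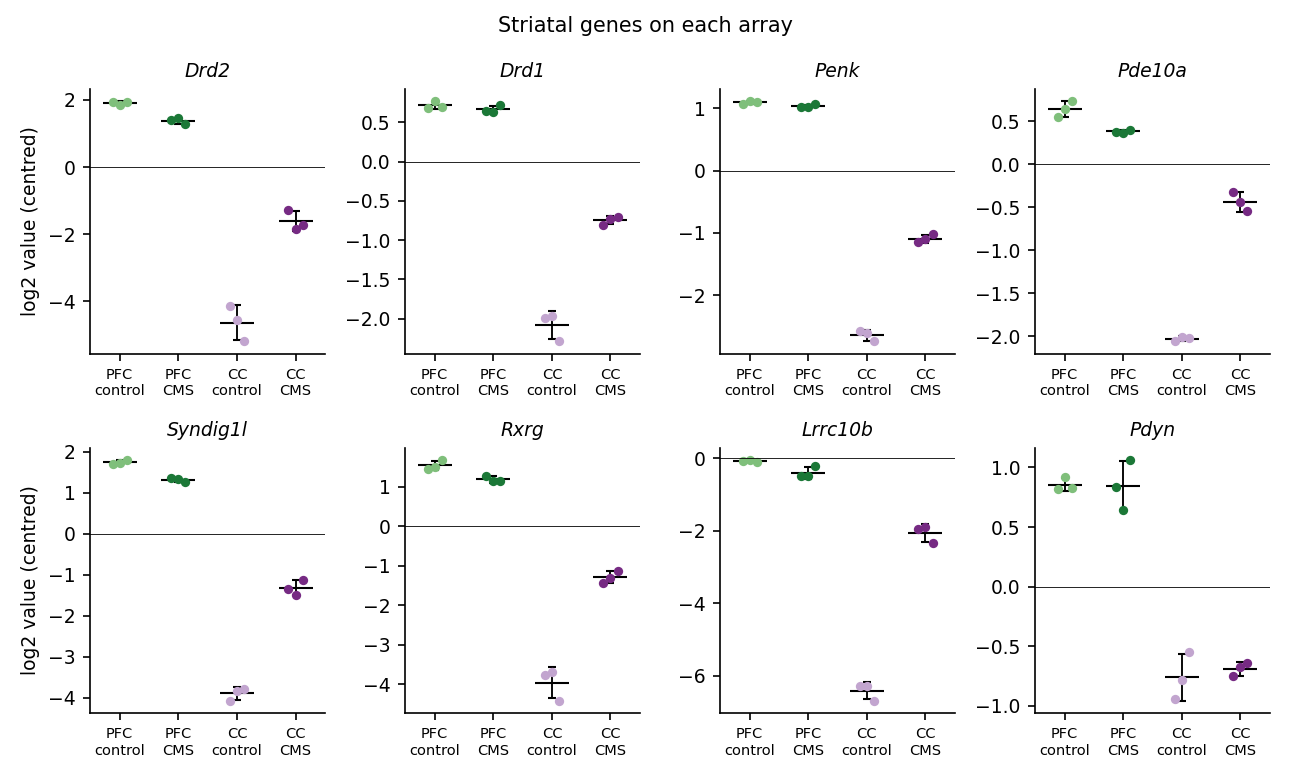
Centred log2 values of 8 striatal genes on each of the 12 arrays, as the mean of the probe sets of a gene, with 3 arrays per group. Points are arrays, and bars give the mean and SD of a group. In 7 genes the CC controls are lowest and CC CMS stands between them and the PFC, and for Pdyn the CC groups overlap.

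A higher CC effect was also called in genes with housekeeping or neuronal roles, for some but not all of their probe sets. Med1, a subunit of the Mediator complex that links transcription factors to RNA polymerase, had 1 of 7 probe sets called. This probe set was -0.05, 0.06 and -1.19 in CC controls and 2.26, 1.79 and 2.36 in CC CMS, a difference to the PFC of 3.08 (SE 0.46, adjusted p = 0.00318, limma). Its other 6 probe sets lay between -0.11 and 0.20. Kif5c, a kinesin of axonal transport, differed by 2.58 (SE 0.43, 2 of 4 probe sets called), Pex5l, a regulator of HCN channels, by 2.57 (SE 0.34, 1 of 4), and Rock1, a kinase that regulates the actin cytoskeleton, by 2.77 (SE 0.55, 2 of 5). Among the 401 called genes that have more than 1 probe set, 87% had exactly 1 called.

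In 3 probe sets the response was called in opposite directions, and 2 of these match a gene. Bptf, a subunit of the NURF chromatin remodelling complex, rose in the CC from -0.93, -0.58 and -1.25 to 0.66, 0.90 and 0.82, and fell in the PFC from 0.07, 0.04 and 0.16 to -0.87, -0.90 and -1.04. Its difference was 2.75 (SE 0.20, adjusted p = 7.21e-05, limma) for 1 of 4 probe sets. Arhgap32, a GTPase activating protein of dendritic spines, rose in the CC from -0.10, -0.0028 and -0.16 to 1.59, 1.58 and 1.59. In the PFC it fell from 1.76, 2.03 and 1.98 to 0.82, 0.92 and 1.02, and the difference was 2.68 (SE 0.11, adjusted p = 3.4e-06, limma) for 1 of 3. Among probe sets called in neither area, Elavl3, a neuronal RNA-binding protein, differed by 1.79 (SE 0.15), from effects of 0.93 in the CC and -0.86 in the PFC, and Nav1, a neuron navigator of growth cones, by 1.64 (SE 0.26). Phf20l1, a reader of methylated lysine, differed by 1.63 (SE 0.24) and Clmn by 1.59 (SE 0.19).

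Myelin genes moved apart by smaller amounts. Of 24 genes of oligodendrocytes and myelin, 11 had a higher CC effect by adjusted p alone and 0 a lower one, against 4.78% and 3.48% of all genes, and the median difference was 0.327. By adjusted p alone, 10 rose in the CC (9.39% of all genes) and 11 fell in the PFC (3.91%). Mobp, a protein of compact myelin, rose in the CC from between -0.16 and -0.08 to between 0.24 and 0.26, and fell in the PFC from between -0.11 and -0.05 to between -0.47 and -0.44. The 2 control groups overlapped and the 2 CMS groups lay on opposite sides of them. Its difference was 0.72 (SE 0.04, adjusted p = 7.32e-06, limma), below the fold threshold. Ugt8a, which makes the myelin lipid galactosylceramide, was the only member called (0.258% of all genes), at 1.02 (SE 0.10). The value was 0.98 with quantile normalization, which ends the call. Among 25 astrocyte genes, Aqp4, the water channel of astrocyte endfeet, was the only gene called (0.258%), at 1.08 (SE 0.08). This call also ended with quantile normalization, at 0.98. By adjusted p alone, 5 astrocyte genes had a higher CC effect (4.78%) and 0 a lower one (3.48%). In the CC 12 rose (9.39%) and 0 fell (6.69%), and in the PFC 5 rose (4.88%) and 4 fell (3.91%).

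Genes of the choroid plexus were among those in which the CC effect lay below that of the PFC. Of 28 measured genes, 12 were called with a lower CC effect and 0 with a higher one, against 0.225% of all genes, with a median difference of -0.922. In the CC 16 genes were called lower with CMS (0.176% of all genes) and 23 were lower by adjusted p alone (6.69%). In the PFC 1 was called lower (0.0934%), which was Ttr, and 9 were lower by adjusted p alone (3.91%). Quantile normalization gave 4 called lower in the PFC. The mean over the 28 genes fell from between 0.97 and 1.11 in CC controls to between -0.66 and -0.61 in CC CMS, and in the PFC from between 0.11 and 0.17 to between -0.39 and -0.36.

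Kcne2, a potassium channel subunit of the secretory epithelium, was 4.24, 4.19 and 4.00 in CC controls and -0.17, -0.18 and -0.30 in CC CMS. In the PFC it was 0.20, -0.011 and 0.67 in controls and -0.15, -0.15 and 0.011 in CMS. The CC controls stood alone and the other 9 arrays lay within 1 log2 unit of each other. Its difference was -3.98 (SE 0.21, adjusted p = 1.45e-05, limma).

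Folr1, the folate receptor that carries folate into the cerebrospinal fluid, was 3.69, 4.32 and 3.67 in CC controls and between -0.27 and -0.02 in CC CMS, with PFC values between -0.46 and 0.78. Its difference was -3.27 (SE 0.34, adjusted p = 0.000473, limma). For Clic6, a chloride channel protein, the probe set with the larger difference fell in the CC from -0.08, -0.02 and -0.36 to -4.38, -4.14 and -4.70. This probe set differed by -3.73 (SE 0.23) and the other by -2.33, and both were called. Calml4, a calmodulin-like protein, differed by -2.79 (SE 0.24) and Kcnj13, an inward rectifier potassium channel, by -2.14 (SE 0.25).

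Some choroid genes fell in both areas. Kl, which encodes the ageing-related hormone coreceptor klotho, fell in the CC from 2.65, 2.66 and 2.34 to -1.99, -2.10 and -2.01, and in the PFC from -0.36, 0.03 and -0.06 to -2.07, -2.13 and -2.11. Its CMS arrays reached the same range in both areas, while the CC controls lay above the PFC controls. The difference was -2.61 (SE 0.15, adjusted p = 2.39e-05, limma) for 1 of 2 probe sets. The largest difference over the 3 probe sets of Ecrg4, an augurin precursor secreted by choroid epithelium, was -1.59 (SE 0.35, adjusted p = 0.0207, limma). This probe set fell by 2.64 in the CC and 1.05 in the PFC, and its adjusted p was 0.0526 without PFC control replicate 3. As a gene mean, Ecrg4 fell by 1.72 in the CC and by 0.50 in the PFC, where it was not called. The difference of the gene mean was -1.21 (SE 0.11, adjusted p = 0.000237, limma), called in all 12 fits that left out 1 array.

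Ttr, the thyroid hormone and retinol carrier that the choroid plexus secretes, fell in both areas and its effects were not called different. Its first probe set fell in the CC from 3.46, 3.46 and 3.35 to -4.12, -3.77 and -3.48, and in the PFC from 1.99, 1.93 and 1.98 to -5.57, -5.59 and -5.46. The PFC lay below the CC under both conditions. Over its 4 probe sets the effect was -7.22 to -6.57 in the CC and -7.51 to -6.82 in the PFC, and the differences lay between -0.18 and 0.61 with adjusted p between 0.0593 and 0.247 (limma). For the first probe set the 95% confidence interval of the difference was -0.12 to 0.70. This depends on scaling, since with quantile normalization of the centred values the 4 differences were -2.48 to -1.08 and 1 was called. Over the whole choroid list the median PFC effect was -0.177.

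**Figure D3:**
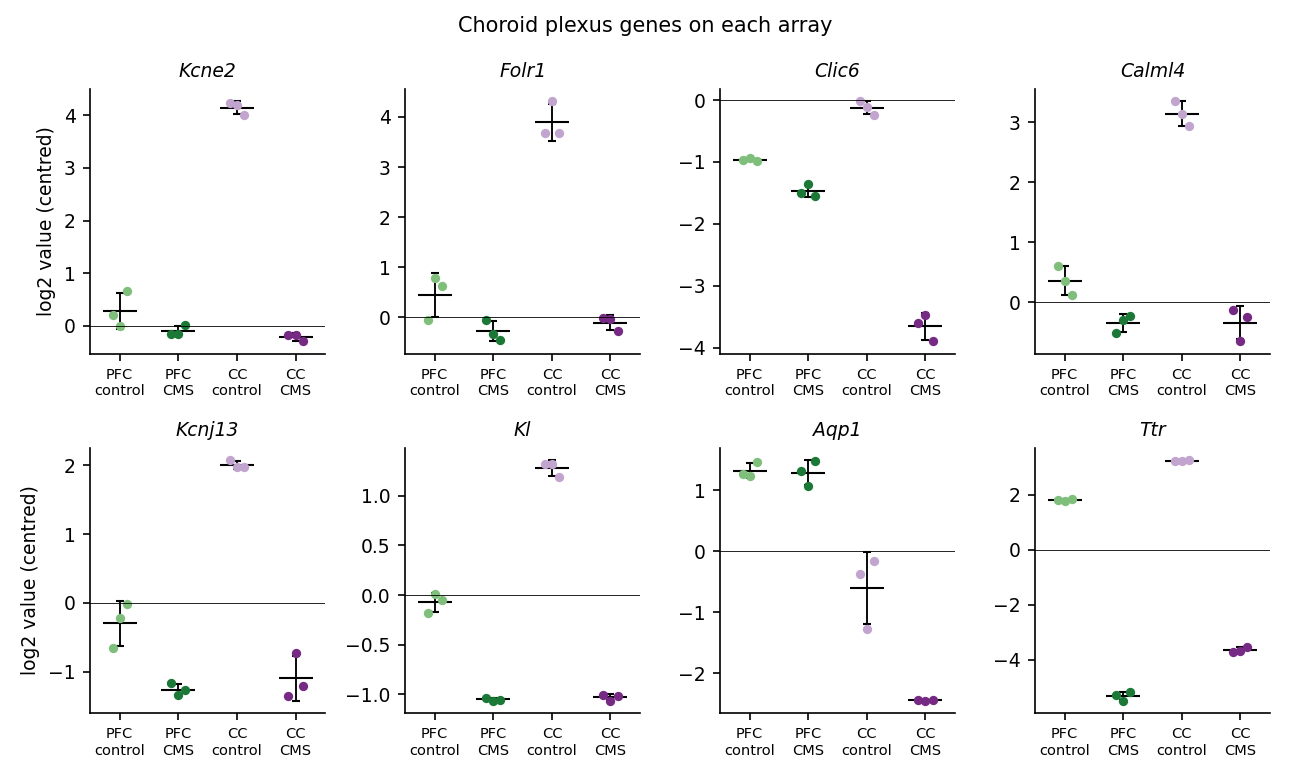
Centred log2 values of 8 choroid plexus genes on each of the 12 arrays, as the mean of the probe sets of a gene, with the mean and SD of 3 arrays per group. CC controls stand above the other groups for Kcne2, Folr1, Clic6, Calml4, Kcnj13 and Kl, Aqp1 is lowest in CC CMS, and Ttr falls in both areas.

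A second arm of genes with a lower CC effect rose in the PFC and stayed near 0 in the CC. These were granule proteins of neutrophils, and genes of olfactory and airway epithelium. Centred values give no level, so here and below a value that stays near 0 cannot be told from an undetected transcript. Of 23 measured genes of neutrophil granules, 5 were called with a lower CC effect (0.225% of all genes) and 0 with a higher one, with a median difference of -0.171. In the PFC 8 were called higher with CMS, against 0.17% of all genes, and in the CC 3 (0.214%), S100a8, S100a9 and Lyz2.

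Ngp, the neutrophilic granule protein, was 5.86, 5.94 and 5.79 in PFC CMS and 0.59, 0.35 and 0.76 in PFC controls, and lay between -0.04 and 0.06 on all 6 CC arrays. Its difference was -5.32 (SE 0.12, adjusted p = 9.46e-08, limma). Ltf, the iron-binding lactotransferrin, was 4.50, 4.44 and 4.09 in PFC CMS and between -0.04 and 0.29 in PFC controls, and differed by -4.21 (SE 0.20). Camp, the cathelicidin antimicrobial peptide, was 4.84, 4.66 and 4.43 in PFC CMS and 0.77, 0.30 and 0.79 in PFC controls, and differed by -4.05 (SE 0.19).

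Lcn2, the siderophore-binding lipocalin, was 3.28, 3.71 and 3.59 in PFC CMS and lay between -0.05 and 0.02 on the other 9 arrays, with a difference of -3.55 (SE 0.12, adjusted p = 1.38e-06, limma). Chil3, a chitinase-like protein of myeloid cells, differed by -3.12 (SE 0.26). Lactotransferrin, cathelicidin and lipocalin belong to the secondary granules, which form late in neutrophil maturation. Of the proteins of the earlier primary granules, Mpo differed by -0.22 (SE 0.06, adjusted p = 0.0514, limma) and Elane by -0.17 (SE 0.14, adjusted p = 0.403, limma). The neutrophil surface receptors Cxcr2 and Csf3r had means between -0.04 and 0.06 in all 4 groups.

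The RefSeq sequence around the start sites of the 5 called granule genes, which were chosen by their values here, was searched for TTGCNNAA. This is a core of the sites of C/EBP factors, which drive granule genes in bone marrow. Both strands of the 300 bases from 250 before to 50 after the start (GRCm38.p6) were read. TTGCNNAA was found in 3 of the 5 called genes (60%), and in 10.8% of 27025 promoters, and these shares were not compared by a test. The same search for TAATCC, a core of the sites of OTX factors, in the 9 called choroid plexus genes with a sequence found 0, against 7.16% of promoters. The 250 bases before the start of the 3 genes that hold it, and of Camp, which does not, are shown with matches in capitals, 5′ to 3′ on the strand of the gene, Lcn2 from chr2:32387740-32387989 (minus), Ngp from chr9:110419558-110419807 (plus), Ltf from chr9:111019042-111019291 (plus) and Camp from chr9:109849457-109849706 (minus).
Lcn2: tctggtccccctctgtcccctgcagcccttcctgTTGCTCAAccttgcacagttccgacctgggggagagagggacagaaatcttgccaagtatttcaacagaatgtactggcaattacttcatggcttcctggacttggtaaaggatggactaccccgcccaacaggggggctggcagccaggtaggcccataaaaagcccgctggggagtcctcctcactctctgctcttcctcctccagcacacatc
Ngp: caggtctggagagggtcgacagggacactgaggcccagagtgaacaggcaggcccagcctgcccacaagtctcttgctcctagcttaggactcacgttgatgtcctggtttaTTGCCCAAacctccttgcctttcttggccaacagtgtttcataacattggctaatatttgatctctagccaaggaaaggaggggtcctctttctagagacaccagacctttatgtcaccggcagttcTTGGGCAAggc
Ltf: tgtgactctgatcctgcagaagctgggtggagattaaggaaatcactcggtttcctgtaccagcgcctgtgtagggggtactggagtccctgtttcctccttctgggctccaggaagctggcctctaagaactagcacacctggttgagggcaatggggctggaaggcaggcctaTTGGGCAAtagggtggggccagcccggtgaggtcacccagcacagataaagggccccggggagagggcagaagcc
Camp: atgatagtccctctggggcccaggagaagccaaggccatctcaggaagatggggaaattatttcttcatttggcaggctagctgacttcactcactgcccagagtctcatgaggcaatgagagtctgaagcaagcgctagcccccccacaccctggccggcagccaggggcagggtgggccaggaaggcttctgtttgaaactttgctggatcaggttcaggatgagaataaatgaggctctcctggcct
A match is a run of letters and does not show that a factor bound there.

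S100a8 and S100a9, the calprotectin subunits of neutrophils and monocytes, rose in both areas. S100a8 rose in the CC from -1.35, -1.32 and -1.54 to 2.33, 1.72 and 2.53, and in the PFC from 2.53, 2.68 and 2.81 to 6.24, 6.27 and 6.22. PFC controls lay at or above CC CMS. The effects of 3.60 and 3.57 gave a difference of 0.03 with a 95% confidence interval of -0.53 to 0.59 (adjusted p = 0.94, limma). For S100a9 the difference was 0.41 (SE 0.11, adjusted p = 0.057, limma), and for Lyz2, the lysozyme of myeloid cells, -0.09 (SE 0.19). These values depend on scaling, since quantile normalization gave 1.56 for S100a8 and 1.99 for S100a9, both called with the higher effect in the CC.

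Of 27 genes of olfactory and airway epithelium, 11 were called with a lower CC effect (0.225% of all genes) and 0 with a higher one. The median difference was -0.429, and -0.265 with quantile normalization. In the PFC 10 were called higher with CMS (0.17%). The other called member, Krt18, a keratin of simple epithelia, did not rise there but fell by 2.02 in the CC. Bpifb9b, a lipid-binding protein of nasal secretions, gave the largest difference of all probe sets named. It was 6.51, 6.62 and 6.32 in PFC CMS and lay between -0.06 and 0.06 on the other 9 arrays. The difference was -6.57 (SE 0.09, adjusted p = 8.16e-10, limma), and both probe sets were called.

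Bpifb3, of the same family, was 4.37, 4.76 and 4.56 in PFC CMS and between -0.03 and 0.22 in PFC controls, and differed by -4.54 (SE 0.13). Sec14l3, a lipid transfer protein of ciliated airway cells, differed by -3.31 (SE 0.37, 2 of 3 probe sets called). The cytochromes P450 of the nasal mucosa Cyp2f2 and Cyp2g1, which metabolise inhaled compounds, differed by -3.27 (SE 0.44) and -3.26 (SE 0.36). Cyp2g1 was 2.69, 3.68 and 3.88 in PFC CMS, between -0.01 and 0.39 in PFC controls and between -0.04 and 0.01 in the CC. Bpifb3 and Bpifa1 lie near each other on chromosome 2 with 4 protein-coding genes between them, and Cyp2g1 and Cyp2f2 on chromosome 7 with 3 between them (RefSeq).

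Markers of olfactory tissue were high in the PFC under both conditions. Omp, the protein of mature olfactory sensory neurons, was 3.63, 3.48 and 3.71 in PFC controls, 4.63, 4.54 and 4.46 in PFC CMS and between -0.09 and 0.0012 in the CC. Its difference of -0.98 (SE 0.08, adjusted p = 0.000104, limma) stayed under the fold threshold. The mean over 20 genes of olfactory bulb and neuroblasts was 2.40 to 2.43 in PFC controls, 2.49 to 2.51 in PFC CMS and -0.80 to -0.71 in the CC. By adjusted p alone, 3 of them rose in the PFC (4.88% of all genes) and 1 fell (3.91%), against 0 and 7 with quantile normalization. The part of olfactory tissue in the rise of the airway and granule genes was not tested. The secretory airway markers Scgb1a1 and Muc5b had means between -0.04 and 0.02 in all 4 groups.

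**Figure D4:**
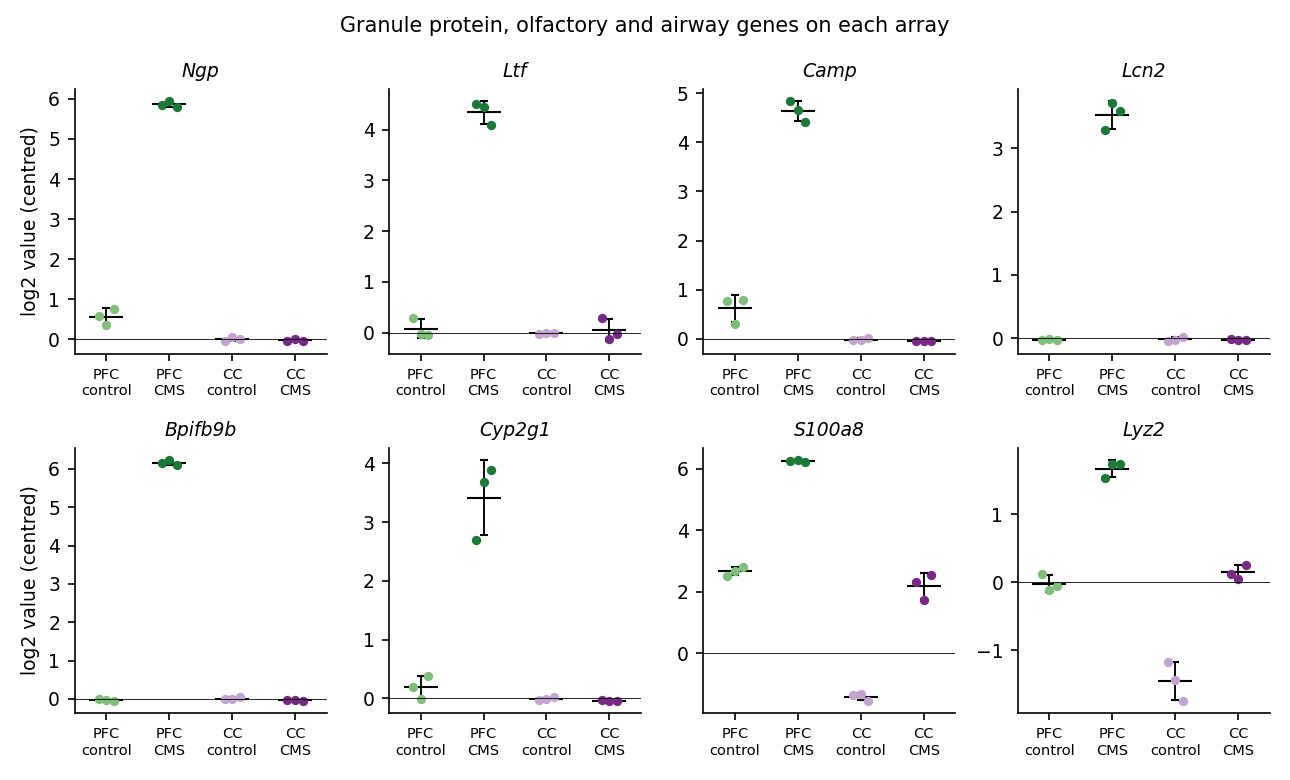
Centred log2 values of 8 genes on each of the 12 arrays, with the mean and SD of 3 arrays per group. Ngp, Ltf, Camp, Lcn2, Bpifb9b and Cyp2g1 are high in PFC CMS alone, while S100a8 and Lyz2 rise with CMS by similar steps in both areas.

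A further set had a higher CC effect because it fell in the PFC alone. Irs4, an insulin receptor substrate of the hypothalamus, was 2.77, 3.01 and 3.41 in PFC controls, between -0.03 and -0.02 in PFC CMS and between -0.07 and 0.01 in the CC. Its difference was 3.05 (SE 0.17, adjusted p = 2.23e-05, limma) for 1 of 2 probe sets. Atf3, a stress-induced transcription factor, fell in the PFC from 2.47, 2.37 and 2.71 to 0.56, 0.21 and 0.46 and lay between -0.20 and -0.0067 in the CC, with a difference of 2.04 (SE 0.15).

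Lhx8, which specifies cholinergic neurons of the basal forebrain, fell in the PFC from a mean of 2.57 (SD 0.18, n = 3) to 1.27 (SD 0.40, n = 3), and differed by 1.54 (SE 0.23). Both PFC groups lay above the CC, whose arrays were between -1.06 and -0.81. Chat and Slc5a7, which make acetylcholine and take up its precursor, had means between -0.025 and 0.0049 in all 4 groups. Chosen after their values were seen, the orphan receptor gene Gpr101, Cd4 and Baiap3, a regulator of dense-core vesicles, fell in the PFC by 1.45, 1.19 and 1.24 and were also called between the areas. With quantile normalization the calls of Gpr101 (adjusted p = 0.0724, limma) and Baiap3 (0.78) ended, and that of Gpr101 was kept in 5 of the 12 fits that left out 1 array.

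Of 45 immediate early genes, which are transcribed within minutes of neuronal firing, 7 were called lower in the CC (0.176% of all genes) and 7 in the PFC (0.0934%). By adjusted p alone 28 fell in the CC (6.69%) and 23 in the PFC (3.91%). The median effects were -0.411 and -0.401. Atf3 was the only gene of the list called between the areas, while by adjusted p alone 5 had a higher (4.78%) and 9 a lower (3.48%) CC effect. Fos fell by 1.13 in the CC and 1.25 in the PFC, with a difference of 0.12 (SE 0.04, adjusted p = 0.104, limma). Arc, the synaptic scaling gene, fell by 1.71 and 1.20, and this difference of -0.51 (SE 0.09) passed by adjusted p = 0.00721 (limma) but not by fold. Bdnf, the growth factor of activity-dependent plasticity, fell by 0.31 in the CC and rose by 0.30 in the PFC by adjusted p, with a difference of -0.61 (SE 0.09, adjusted p = 0.00255, limma).

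Hormone and neuropeptide genes gave 2 calls in each direction among 36, against 0.258% of all genes higher and 0.225% lower. Penk and Nts, the neurotensin precursor, had the higher CC effect, at 1.61 and 1.12, and both calls ended with quantile normalization (0.93, and adjusted p = 0.0582 from limma). Adcyap1, which encodes the stress neuropeptide PACAP, fell in the CC from between 0.82 and 0.96 to between -0.16 and -0.09 and lay between -0.08 and 0.28 in the PFC, with a difference of -1.23 (SE 0.08, adjusted p = 2.52e-05, limma). Gh, growth hormone, differed by -1.31 (SE 0.31), and its call was kept in 2 of the 12 fits that left out 1 array. Crh, the corticotropin-releasing hormone, differed by -0.68 (SE 0.12) without a call.

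Of 24 genes of the glucocorticoid response and CRH axis, 0 were called, with 4 higher (4.78% of all genes) and 2 lower (3.48%) by adjusted p alone and a median of -0.0621. The glucocorticoid receptor Nr3c1 rose in the CC by 0.48 and had a PFC effect of 0.09, a difference of 0.39 (SE 0.05, adjusted p = 0.00132, limma) under the fold threshold. Fkbp5, the chaperone that the receptor induces, differed by 0.29 (SE 0.07).

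Cbln1, a synapse organizer of the cerebellin family, had differences of -0.95 to -0.40 over 3 probe sets with adjusted p of 0.0296 to 0.0493 (limma), all under the fold threshold. The largest was called at -1.03 with quantile normalization, at -1.06 without CC CMS replicate 3 and at -1.09 without CC control replicate 3. Nrp1, a receptor of semaphorins and vascular growth factor, had differences of -0.61 to 0.03 over 4 probe sets, and only that of -0.61 (SE 0.08, adjusted p = 0.00141, limma) passed by adjusted p.

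In lists of 20 hippocampal, 27 cortical layer, 23 interneuron, 24 thalamic, 28 microglial, 28 meningeal, 24 vascular, 28 interferon-stimulated, 70 oxidative phosphorylation and 44 ribosomal protein genes, 0 were called between the areas by gene. The share over all genes was 0.484%. By probe set, 4 of 66 cortical layer, 1 of 40 interneuron and 1 of 43 vascular ones had a higher CC effect (1.23% of all probe sets). Of 149 for oxidative phosphorylation, 1 was called higher and 1 lower (0.295%). Medians of the differences in these lists ran from -0.0905 in hippocampal to 0.18 in meningeal genes. For the interferon-stimulated genes, 0 differed by adjusted p alone as well, while by the same measure 4 of 28 rose in each area, against 9.39% of all genes in the CC and 4.88% in the PFC.

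**Figure D5:**
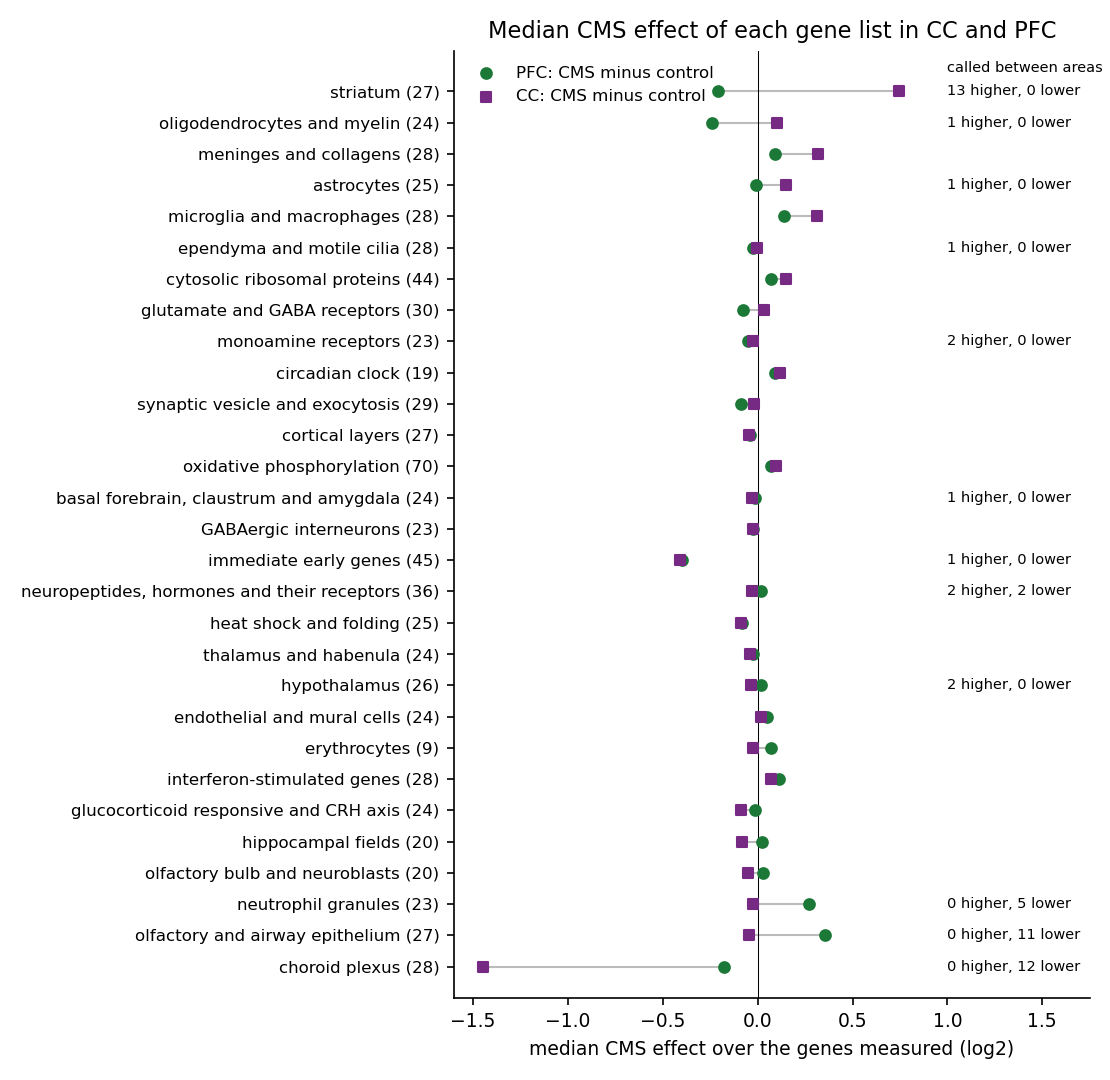
Median CMS effect over the measured genes of each of 29 lists in the CC (squares) and the PFC (circles), in log2 units, with the number of genes measured in brackets. Text at the right counts genes called between the areas. The lists of striatum and choroid plexus show the widest gaps, and immediate early genes lie at -0.411 and -0.401.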

How the data were processed

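Mouse brain RNA was hybridised to 24 Affymetrix GeneChip arrays, of which the 12 of CC and PFC were used. The sources used here do not say which areas came from the same mouse. The authors made the deposited log2 values with GCRMA in GeneSpring GX and set each to a baseline over the arrays, so levels and spot backgrounds are lost, and precision is limited by having 3 arrays a group. The log base was taken from the methods and the range of the values. Of 45101 probe sets, 64 controls were left out. In the platform annotation 34945 of the rest had 1 gene symbol, 932 several and 9160 none.

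limma 3.58.1 in R 4.3.3 was fitted with 4 group means and 8 residual degrees of freedom, two-sided, with Benjamini-Hochberg adjustment over all 45037 probe sets, or over 18193 genes as the mean of their probe sets. The members and the 29 gene lists were chosen with earlier results of these data known. Of 900 list members 808 were measured. Named were the 12 largest called differences in each direction that kept sign and call without any 1 array, Ttr, S100a8, Cbln1 and Nrp1, up to 4 called members of a list (or up to 2 others), and up to 4 genes of each class of calls. Others were chosen after their values were seen. In simulated data with this design, 82% of 50 probe sets with a difference of 1.5 were recovered, and 98% at 2. The simulated noise was independent between probe sets and had the same SD on every array. Arrays that stand apart, such as CC control replicate 3, were therefore not simulated.

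Alternatives were quantile normalization and median centring of the arrays, both on the centred deposited values, array weights, other fits and thresholds, blocks and leaving out each array. Deviations from the group mean correlated at -0.227 to 0.0255 between same-numbered CC and PFC arrays, and at -0.128 to 0.181 between differently numbered ones. With 3 arrays a group these values cannot show whether arrays share a mouse. The numbers were not taken as pairs, since the sources do not name them so. Figures were drawn with matplotlib 3.10.9.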

Additional observations from a re-analysis of the deposited data

Results flagged for a closer look

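The CMS effect differed between the areas by a test of the difference itself (limma) in 556 probe sets with the higher CC effect and 133 with the lower one. Among those named, the CC effect minus the PFC effect in log2 units was 4.69 for Lrrc10b, 3.55 for Drd2, 3.46 for Pde10a, 3.14 for Syndig1l, 3.08 for Med1 and 3.05 for Irs4. It was 3.01 for Rxrg, 2.77 for Rock1, 2.75 for Bptf, 2.68 for Arhgap32, 2.58 for Kif5c and 2.57 for Pex5l. Smaller differences were 1.79 for Elavl3, 1.64 for Nav1, 1.63 for Phf20l1 and 1.59 for Clmn.

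On the negative side it was -6.57 for Bpifb9b, -5.32 for Ngp, -4.54 for Bpifb3, -4.21 for Ltf, -4.05 for Camp and -3.98 for Kcne2. It was -3.73 for Clic6, -3.55 for Lcn2, -3.31 for Sec14l3, -3.27 for both Folr1 and Cyp2f2, -3.26 for Cyp2g1, -2.61 for Kl and -1.59 for Ecrg4.

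The control probe sets, which the comparison left out, also moved. The poly-A controls had a mean CMS effect of 0.579 in the PFC and -0.443 in the CC, and the hybridisation controls of 0.341 and -0.152. Their part in the gene results was not tested.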

How the results depend on the processing

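Counts are given as CC effect above and below the PFC effect, against 556 and 133. With genes in place of probe sets they were 47 and 41 (71 in the CC, 48 in the PFC), with limma treat against a difference of 1 they were 28 and 21, and with no fold threshold 2225 and 1857 (6477 in the CC, 2898 in the PFC). Array weights gave 280 below. Leaving out 1 array gave 468 to 591 above, 120 to 168 below, 580 to 655 in the CC and 102 to 112 in the PFC. With same-numbered arrays of a condition taken as 1 mouse, which the labels do not state, a replicate block gave 433 and 99, as a random replicate block 420 and 91, and with the number as a fixed replicate block 509 and 120. The first of these ended the calls of the named probe sets of Rock1 (adjusted p = 0.072, limma) and Ecrg4 (0.106). Quantile normalization called 9 striatal genes in place of 13, 0 astrocyte genes in place of 1, 0 hormone and neuropeptide genes with the higher CC effect in place of 2, and 4 choroid genes lower in the PFC in place of 1. Median centring called 1 hormone gene with the lower CC effect in place of 2, and left Gh at adjusted p = 0.0535 (limma).

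Signs turned only for differences that were not called. Quantile normalization gave -1.435, -1.233 and -1.084 for 3 Ttr probe sets and -0.03458 for a probe set of Nrp1. Array weights gave -0.06479 for Nrp1 and -0.05234 for S100a8. Leaving out 1 array gave -0.1392 to 0.2656 for S100a8, and -0.08145 to 0.08419 and -0.1301 to 0.205 for 2 Nrp1 probe sets. The cause was not tested. Having 3 arrays a group limits what smaller differences can show.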
